A study of Mus musculus with 2 samples.

Results

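The genes described here are 10 that carry a cell from G1 into S phase, namely the D-type cyclins Ccnd1, Ccnd2 and Ccnd3, their kinases Cdk4 and Cdk6, the E-type cyclins Ccne1 and Ccne2, the pocket protein Rb1 and the transcription factors E2f1 and E2f2. They were chosen by symbol, and each symbol matched 1 row of the 31055 features in both count matrices. The cells came from pituitaries of mice at postnatal day 3 that carried 1 Sox9iresGFP allele (Sox9iresGFP/+), in which a green fluorescent protein is made from the Sox9 locus, and they were sorted for GFP. There was 1 male (XY) and 1 female (XX) library, each from 3 pituitaries pooled, and no animal was treated. The gate was set on the reporter and not on SOX9 itself, and it is not limited to stem cells (SCs).

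In G1, D-type cyclins bind CDK4 or CDK6 and phosphorylate RB1, which otherwise holds E2F factors inactive on the promoters of S phase genes. Released E2F factors switch on the E-type cyclins, DNA replication genes and their own genes, cyclin E with CDK2 completes the phosphorylation of RB1, and the cell enters S phase. The pituitary is known for its dependence on this pathway, since mice with 1 functional Rb1 allele develop tumours of the pituitary intermediate lobe and loss of CDK4 leaves the postnatal gland small.

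The male library held 10410 cells after quality filters, with a median of 8903 unique molecular identifiers (UMIs, 1 per captured RNA molecule) per cell, and the female library 5711 cells with a median of 9789. Cells with at least 5000 UMIs were used, which left 6783 male and 5424 female cells, and 19 cell barcodes occurred in both libraries. Classes were set from UMIs of marker genes other than the 10 genes. An SC had Sox2 and other SC markers and no differentiation, hormone or mesenchymal gate. SCs were called quiescent when they held at most 2 UMIs of 28 S phase, G2 and mitosis markers together, and cycling when they held at least 10, a rule that cannot tell a resting cell from one in G1. The labels call both samples stem cells, but by these markers SCs in any state made up 37.2% of the cells used from the male library and 53.7% of those from the female one.

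Quiescent SCs numbered 1391 male and 1942 female cells, S phase SCs 362 and 277, and SCs in G2 or mitosis (G2/M SCs) 469 and 363. Differentiating cells (Lef1, Dll1, Shh and related genes), endocrine cells and mesenchymal cells were taken only where they too held at most 2 UMIs of the cycle markers, and numbered 1194 and 924, 1176 and 372, and 421 and 252. The endocrine class held 624 male and 86 female gonadotrophs, 413 and 188 cells of the POU1F1 lineage and 139 and 98 melanotrophs. Levels of the gate genes follow from the gates, and Sox2 was at 668 CPM (UMIs of the gene scaled to the same total in every class) in male and 802 in female quiescent SCs. Pitx1, which is made throughout the pituitary epithelium and was not a gate gene, was at 181.5 and 195.3 CPM in quiescent SCs against 16.0 and 9.66 in mesenchymal cells. Hormone RNA also reached other classes. Pomc was at 260200 CPM in male and 136100 in female melanotrophs, and still at 178 and 52.4 in quiescent SCs, so a low level in a class can be free RNA.

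The level of a gene in a class is its UMIs summed over the cells, in CPM, and its exact Poisson 95% interval is for error in counting and not for spread between animals. Each sex has a single library, so differences were not tested: 2 ratios cannot give an exact two-sided p below 0.5. A gene was counted as higher or lower when its level differed by at least 1.5-fold the same way in both libraries and the intervals of the classes were apart in each. Limits after a ratio come from the ends of the intervals and are wider than 95%.

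The RNA of the 10 genes came from 35705 UMIs of Ccnd1, 26351 of Ccnd2, 12993 of Ccnd3, 79342 of Cdk4, 7005 of Cdk6, 1333 of Ccne1, 1849 of Ccne2, 3574 of Rb1, 2204 of E2f1 and 744 of E2f2 over both libraries. Ccne1 (chr7:38097984-38107534, minus strand, GRCm38), Ccne2 (chr4:11191351-11204779, plus), E2f1 (chr2:154559407-154569892, minus) and E2f2 (chr4:136172394-136196057, plus) were the rare transcripts. All 10 are protein-coding genes in the GENCODE annotation. The counts are of molecules at their 3′ ends and do not tell isoforms apart.

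**Figure D1:**
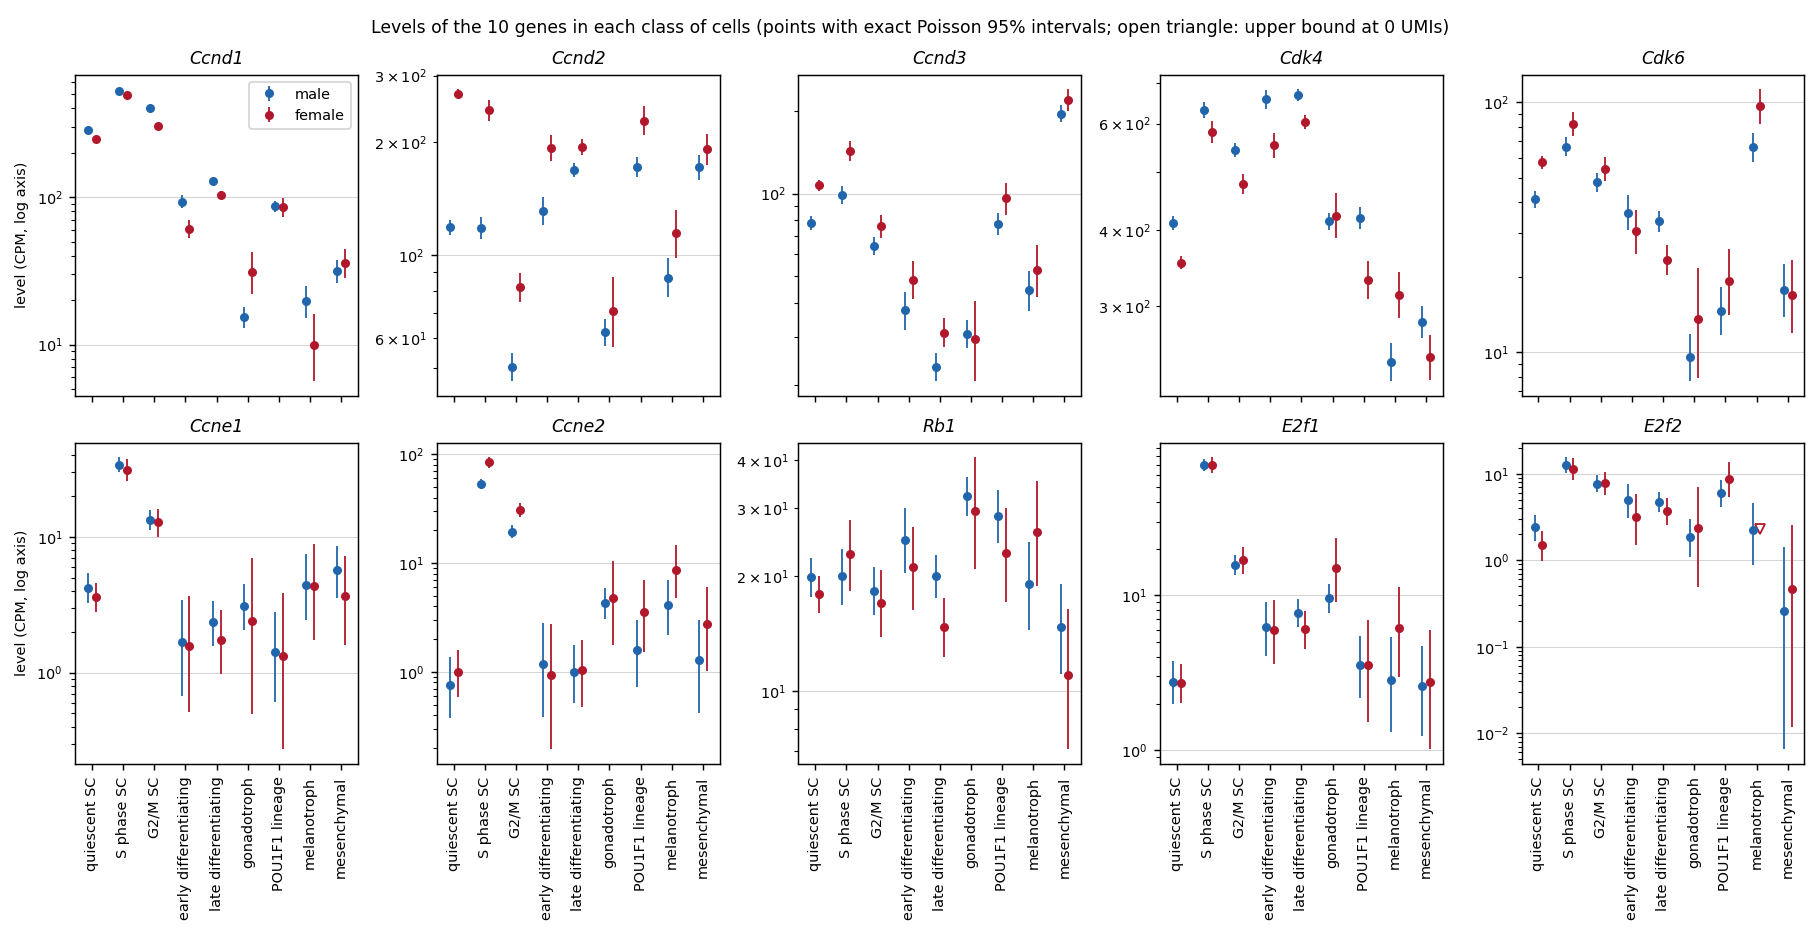
Level of each of the 10 genes (CPM, log axis) in 9 classes of cells, male library in blue and female library in red, bars exact Poisson 95% intervals. Ccne1, Ccne2, E2f1 and E2f2 stand highest in S phase SCs, Ccnd1 is high in all SC classes and low in endocrine and mesenchymal cells, and Ccnd3 is highest in mesenchymal cells. The open triangle is the upper bound where a class held 0 UMIs.

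The Cdk4 promoter is shown because MYC and MYCN act through the E-box CACGTG, Cdk4 is a known MYC target and its level changed in 2 of the classes. RefSeq gave a start for 6 of the 10 genes in the promoter table used (GRCm38.p6). Capitals mark every CACGTG, which reads the same on both strands, in the 250 bases before the Cdk4 start (chr10:127063285-127063534, plus strand):

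Cdk4: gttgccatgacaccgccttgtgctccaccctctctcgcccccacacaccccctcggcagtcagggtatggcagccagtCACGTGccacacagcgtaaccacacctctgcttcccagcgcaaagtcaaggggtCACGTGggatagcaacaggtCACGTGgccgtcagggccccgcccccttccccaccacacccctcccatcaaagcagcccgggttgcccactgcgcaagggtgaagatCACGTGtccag

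This window held 4 E-boxes, beginning 172, 118, 98 and 11 bases before the start. The Cdk6 window held 1, beginning 220 bases before the start, and Cdk6 was not higher in differentiating cells, with ratios to quiescent SCs of 0.836 and 0.440. Of 32851 RefSeq windows of the same length, 6.02% held at least 1 and 0.0213% held 4 or more. The letters TTTCGCGC, TTTGGCGC, TTTCCCGC and TTTGCCGC, spellings of the E2F site, were searched on both strands and were not found in the 8 windows of the 6 genes, while 1.86% of all windows held one. The E2f1 window lies wholly in GENCODE exons within the gene, and no GENCODE start lies within 60 bases of its end or of that of the first E2f2 window, so the bases before the GENCODE start of E2f1 were not searched. A match is a description of letters and was not tested as a site.

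In S phase SCs 6 of the 10 genes were higher than in quiescent SCs and 0 were lower, while 7.32% of the 12972 genes with enough UMIs were higher and 1.72% lower. The cells had been gated on 12 other S phase genes, so this comparison shows which G1 genes follow those markers. Ccne2 was at 53.3 CPM in male and 84.2 in female S phase SCs and at 0.761 and 0.9999 in quiescent SCs, where 11 and 18 UMIs were found. The ratio was 70.1 (limits 35.4 to 155) in the male and 84.3 (47.7 to 158) in the female library. Ccne1, which encodes the other E-type cyclin, was at 34.1 and 31.1 CPM against 4.22 and 3.61, a ratio of 8.08 (5.53 to 11.95) and 8.63 (5.62 to 13.3). Both E-type cyclins were thus apart between the classes in both libraries, and their proportions moved. Ccne2 gave 15.3% of male and 21.7% of female E-type cyclin UMIs in quiescent SCs, and 61.0% and 73.0% in S phase SCs.

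E2f1, the founding activator E2F, was at 69.4 CPM in S phase SCs of each library and at 2.77 in male and 2.72 in female quiescent SCs, a ratio of 25.1 (16.9 to 38.3) and 25.5 (17.1 to 38.8). E2f2, an activator of the same group, was at 12.7 and 11.5 against 2.42 and 1.5 CPM, a ratio of 5.24 (3.04 to 9.21) and 7.66 (3.84 to 15.6). The 2 libraries hardly differed in their E2f1 levels. Ccnd1 was at 523 and 490.1 CPM against 283 and 248, a ratio of 1.85 (1.73 to 1.97) and 1.98 (1.84 to 2.13), and Cdk4 at 632 and 581 against 412 and 354, a ratio of 1.53 (1.45 to 1.62) and 1.64 (1.54 to 1.75). The count of Ccnd1 was lost when classes were set on cells thinned to 5000 UMIs, and that of Cdk4 when CPM left out mitochondrial, ribosomal protein and hormone genes.

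The other members were not counted as higher or lower, though the male ratio of Cdk6 exceeded that of Cdk4. Cdk6 had a ratio of 1.63 (1.37 to 1.93) in the male and 1.43 (1.20 to 1.69) in the female library, and Ccnd3 of 1.27 (1.11 to 1.45) and 1.33 (1.17 to 1.51). Rb1, the brake that the kinases release, was at 19.9 and 22.7 CPM in S phase SCs and 19.8 and 17.9 in quiescent SCs, with ratios of 1.01 (0.757 to 1.33) and 1.27 (0.912 to 1.74). Ccnd2 was at 118 and 242 CPM against 118 and 268, with ratios of 0.995 (0.887 to 1.12) and 0.903 (0.823 to 0.990). These limits leave room for changes of Rb1 and Ccnd2 that are smaller than those of the E-type cyclins.

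**Figure D2:**
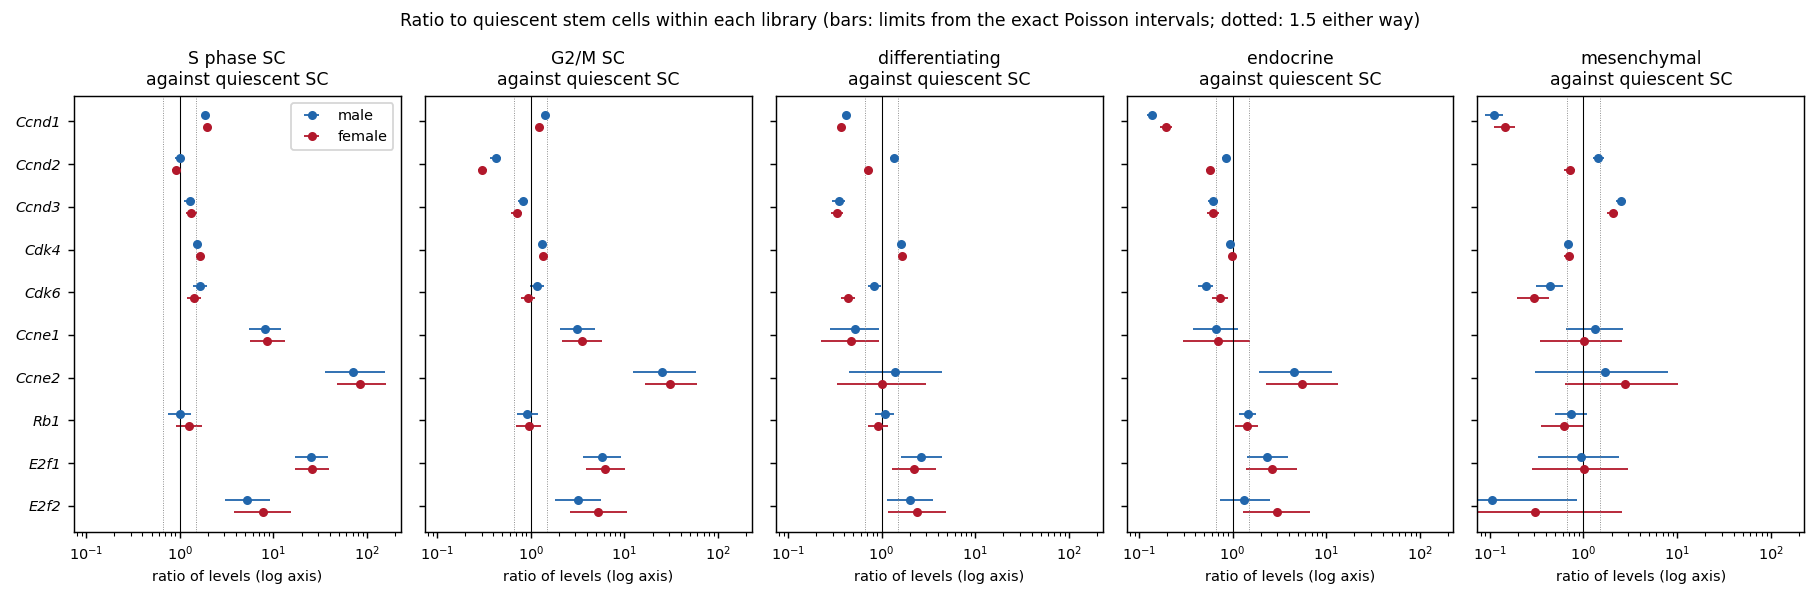
Ratio of the level in each class to that in quiescent SCs of the same library (log axis), male in blue and female in red, bars the limits from the exact Poisson intervals and dotted lines 1.5-fold either way. In S phase SCs Ccne2 lies at 70.1 and 84.3 and E2f1 at 25.1 and 25.5, and Ccnd1 lies at 0.137 and 0.195 in endocrine and 0.111 and 0.145 in mesenchymal cells. The lower limits of E2f2 in mesenchymal cells lie off the axis.

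Along the S phase markers the order of the genes could be followed within SCs that held few G2 and mitosis UMIs. Each SC was thinned to 5000 UMIs for the grouping, by its UMIs of the 12 S phase markers into 0, 1 to 2, 3 to 5, 6 to 9 and 10 or more, and levels were taken from all UMIs. E2f1 went from 2.98 CPM at 0 marker UMIs to 12.1, 38.3, 68.7 and 99.3 in the male library, and from 2.63 to 9.52, 43.1, 67.0 and 98.3 in the female library. Ccne2 went from 0.899 to 5.37, 16.0, 35.6 and 70.8 in the male and from 0.857 to 5.60, 34.5, 53.6 and 91.9 in the female. Both were lowest in the first group and highest in the last in both libraries. Ccnd1 rose from 297 to 373 and 494 CPM over the first 3 male groups and from 248 to 334 and 538 over the first 3 female groups. From there it stood at 606 and 633 in the male, and at 529 and 479 in the female library. Ccnd2 was highest at 3 to 5 marker UMIs, with 152 CPM in male and 337 in female cells, and lower at 10 or more, with 99.3 and 190.3. The last group held only 68 male and 39 female cells.

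In G2/M SCs 4 of the 10 genes were higher and 1 lower than in quiescent SCs, beside 7.23% and 5.39% of all genes tested. Ccne2 (25.5 and 30.8 times the quiescent level), E2f1 (5.70 and 6.25), Ccne1 (3.15 and 3.54) and E2f2 (3.18 and 5.22) were higher. Ccnd2 was lower, at 50.4 CPM in male and 82.0 in female cells against 118 and 268, a ratio of 0.426 (0.372 to 0.487) and 0.306 (0.271 to 0.344). Ccnd1 and Cdk4 kept ratios above 1 without reaching the limit, with 1.42 and 1.22 for Ccnd1 and 1.32 and 1.35 for Cdk4. Set against S phase SCs, 5 genes were lower in G2/M SCs and 0 higher, beside 2.87% and 3.07% of all genes. They were E2f1 (ratios 0.227 and 0.245), Ccne2 (0.364 and 0.366), Ccne1 (0.390 and 0.410), Ccnd2 (0.428 and 0.339) and Ccnd3 (0.652 and 0.532).

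Grouped by UMIs of the 16 G2 and mitosis markers, SCs with 5 to 19 such UMIs in 5000 held the most Ccne1, Ccne2 and E2f1 of any group in both libraries. SCs with 50 or more, 90 male and 83 female cells, held few of them. E2f1 there was at 2.51 CPM (0.816 to 5.86) in male and 4.84 (1.94 to 9.96) in female cells, Ccne1 at 2.01 and 2.76, and Ccne2 at 1.01 and 3.45. Ccnd2 was lowest in that group, at 21.1 and 55.3 CPM, while Ccnd1 was still at 341 and 325. Ccna2, the cyclin of late S phase and G2, was at 517 and 473 CPM in the same cells.

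**Figure D3:**
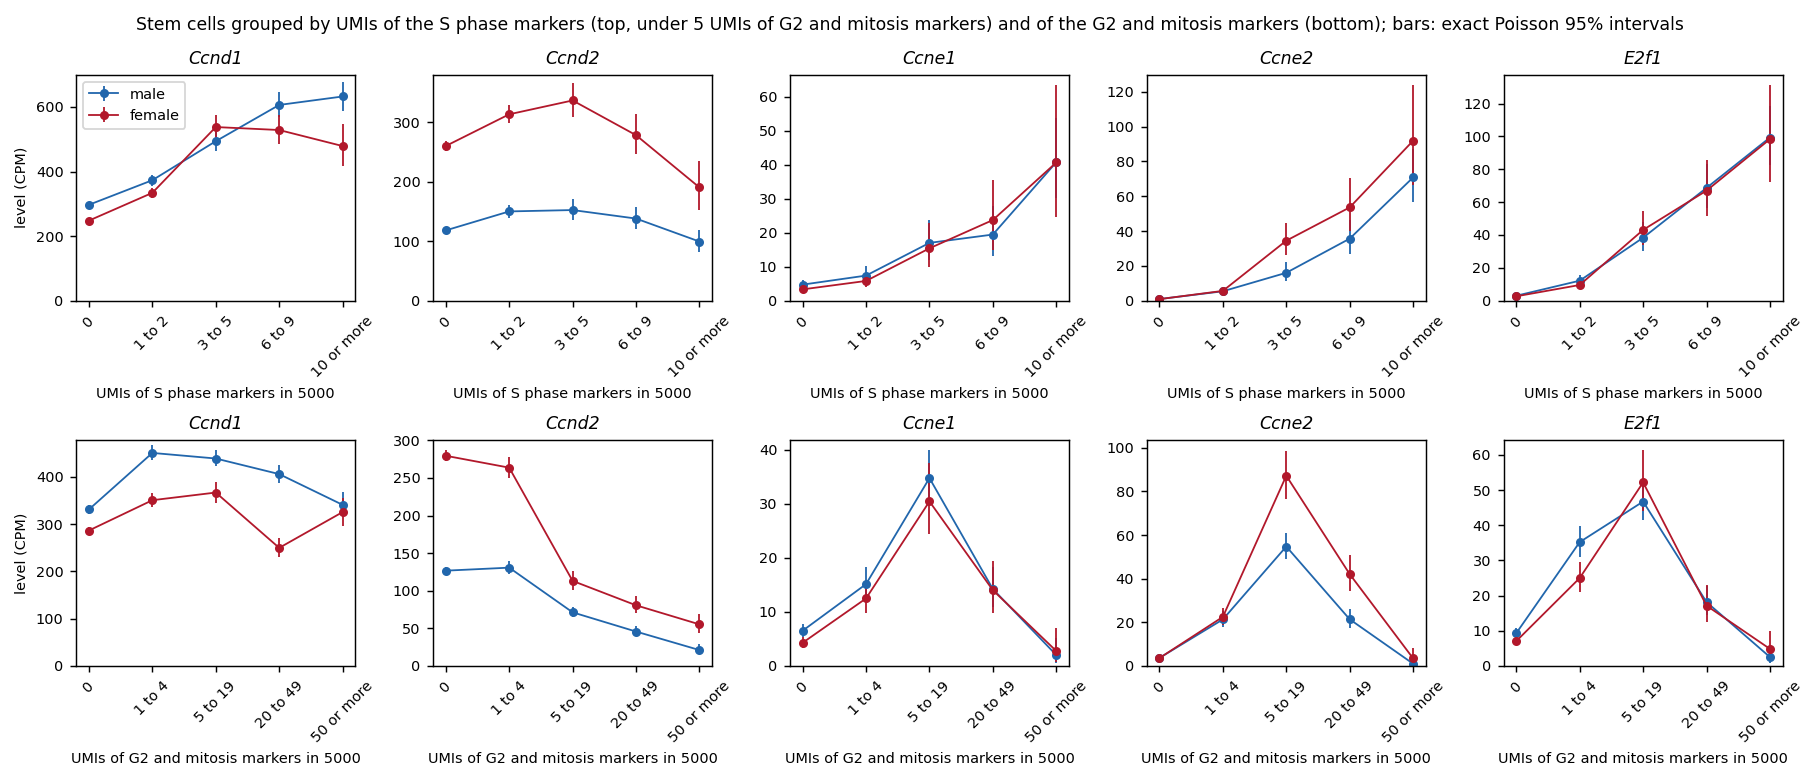
Level (CPM) of Ccnd1, Ccnd2, Ccne1, Ccne2 and E2f1 in SCs grouped by UMIs in 5000 of the S phase markers (top) or of the G2 and mitosis markers (bottom), male in blue and female in red, bars exact Poisson 95% intervals. E2f1 climbs to 99.3 and 98.3 CPM along the S phase markers and drops to 2.51 and 4.84 at 50 or more G2 and mitosis UMIs, where Ccnd2 is lowest.

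The other genes of the pathway were counted by list, beside 7.32% of all genes higher and 1.72% lower in S phase SCs and 7.23% and 5.39% in G2/M SCs. Of 15 known E2F targets that were not used to gate cells, 15 were higher in S phase SCs and 15 in G2/M SCs. The cells were gated on other S phase, G2 and mitosis genes, so a gene that follows those markers is higher through the choice of cells. These counts are thus no separate sign of E2F activity. Tk1, thymidine kinase, was at 94.9 and 109 CPM in S phase SCs against 0.623 and 1.22, and Ccna2 at 41.5 and 41.1 against 0.692 and 0.889. The median log2 ratio of the 15 was 3.16, while that of all genes tested was -0.04. Of 10 other pocket proteins, E2F and DP factors, 5 were higher in S phase SCs and 0 lower, led by the repressor E2Fs E2f8 (38.7 and 36.5 CPM against 0.692 and 0.444) and E2f7 (21.1 and 16.1 against 0.0692 and 0.333, which was 1 UMI in the male quiescent SCs). Of 8 other G1/S kinases and regulators 4 were higher, with Skp2, part of the ligase that degrades p27, at 24.3 and 24.5 CPM against 6.02 and 4.61, and Cdk2, the partner of cyclin E, at 29.6 and 29.4 against 9.13 and 8.06. Of 6 genes, those of the MuvB core and Mybl2, 4 were higher, with Mybl2 at 18.4 and 22.0 CPM against 0.346 and 0.389.

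Among 7 CDK inhibitors 2 of the 6 with enough UMIs were higher in S phase SCs, beside the same 7.32% of all genes. They were Cdkn2c, an inhibitor of CDK4 and CDK6 (35.9 and 28.1 CPM against 5.19 and 3.78), and Cdkn1a, which encodes p21 (26.2 and 38.0 against 15.3 and 16.7). In G2/M SCs Cdkn2c reached 106 and 99.9 CPM, and Cdkn2d 80.0 and 94.8. Of 3 MYC factors and 6 immediate-early genes, 0 were higher or lower in S phase SCs. Myc was at 8.46 and 8.42 CPM in S phase SCs against 8.93 and 10.3 in quiescent SCs.

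Differentiating cells with at most 2 UMIs of cycle markers differed from quiescent SCs in 6 of the 10 genes, 3 higher and 3 lower, beside 10.5% and 18.6% of the 13395 genes tested. Cdk4 was at 666 CPM in male and 589.8 in female differentiating cells against 412 and 354, a ratio of 1.62 (1.55 to 1.69) and 1.67 (1.59 to 1.75). The differentiating cells held at most 2 UMIs of cycle markers, and yet their Cdk4 interval lay above that of S phase SCs in the male library and overlapped it in the female. E2f1 was higher at 7.31 and 6.02 CPM against 2.77 and 2.72, with ratios of 2.64 (1.61 to 4.43) and 2.21 (1.31 to 3.77), and E2f2 at 4.83 and 3.56 against 2.42 and 1.5, with ratios of 1.996 (1.13 to 3.58) and 2.37 (1.18 to 4.87). Their levels stayed far under those of S phase SCs. The count of E2f1 was lost when classes were set on thinned cells.

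Ccnd1 was lower in differentiating cells, at 119 and 92.1 CPM, with ratios of 0.421 (0.390 to 0.454) and 0.372 (0.340 to 0.406), and so was Ccnd3, at 27.0 and 35.8 CPM against 77.9 and 107, with ratios of 0.347 (0.297 to 0.404) and 0.333 (0.289 to 0.384). Ccne1 was lower at 2.17 and 1.70 CPM, with ratios of 0.514 (0.279 to 0.934) and 0.470 (0.225 to 0.940). That count rested on 35 and 20 UMIs and was lost with looser and with stricter gates. Ccnd2 went opposite ways, from 118 to 159 CPM in the male library and from 268 to 194 in the female, so that differentiating cells of the libraries were closer to each other than their SCs were. Late differentiating cells, which held Shh, Smoc2, Pou3f4 or C1ql2, had less Ccnd3 than early ones (23.4 and 31.1 CPM against 37.5 and 48.4), the 1 gene of the 10 counted in that comparison, beside 2.57% of all genes lower and 2.10% higher.

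The MYC factors were read in the same cells, and any part of theirs in the Cdk4 level was not tested. Mycn was at 52.0 and 38.5 CPM against 12.9 and 15.3 in quiescent SCs, and Myc at 16.9 and 16.6 against 8.93 and 10.3, which made 2 of the 3 MYC factors higher, beside 10.5% of all genes. Neither was higher in S phase SCs. In gonadotrophs Mycn was higher too (43.4 and 45.4 CPM), while Cdk4 had ratios of 1.01 (0.949 to 1.07) and 1.20 (1.07 to 1.34).

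Most other cycle genes were not counted in differentiating cells. Of 13 E2F targets with enough UMIs 2 were higher and 1 lower, beside 10.5% and 18.6% of all genes, shares too close to tell the list apart by so few genes. The 2 were Mcm2 at 41.6 and 32.0 CPM against 10.5 and 8.67 and Mcm7 at 69.0 and 67.2 against 34.3 and 34.1. Among the CDK inhibitors Cdkn1a was higher (76.6 and 76.0 CPM against 15.3 and 16.7), as was Cdkn1c, which encodes p57 (1120 and 1119 against 475 and 486). Cdkn1b, which encodes p27, was lower (55.9 and 63.2 against 98.6 and 99.9), as was Cdkn2c. Tfdp2, a DP partner of the E2Fs, was the 1 higher gene of its list (ratios of 1.70 and 1.82).

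In endocrine cells 2 of the 10 genes were higher and 2 lower than in quiescent SCs, beside 17.1% and 16.1% of the 13758 genes tested. These shares are near the background, so the counts say little by themselves, and the sizes were uneven. Ccnd1 was at 38.6 CPM in male and 48.3 in female endocrine cells, a ratio of 0.137 (0.123 to 0.152) and 0.195 (0.166 to 0.227). Ccnd3 was at 48.0 and 66.2 CPM, with ratios of 0.616 and 0.617. Ccne2 was higher at 3.41 and 5.45 CPM, with ratios of 4.48 (1.91 to 11.5) and 5.45 (2.29 to 13.3), and E2f1 at 6.48 and 7.2, with ratios of 2.34 (1.42 to 3.93) and 2.65 (1.41 to 4.93). The count of E2f1 was again lost when classes were set on thinned cells. Cdk4 was at 385 and 348 CPM, with ratios of 0.936 (0.891 to 0.983) and 0.984 (0.916 to 1.06). The types were uneven in Cdk4. It had a ratio of 0.590 (0.535 to 0.649) in male and 0.886 (0.7905 to 0.9905) in female melanotrophs, and of 1.01 and 1.20 in gonadotrophs. Pomc took a larger part of the UMIs in male than in female melanotrophs, which lowers the male Cdk4 CPM more.

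The endocrine types differed in their D-type cyclins and in Cdk6. Gonadotrophs, which make the pituitary gonadotrophins, had 4 of the 10 genes lower and 3 higher, beside 13.8% and 15.2% of all genes. Ccnd1 was at 15.3 and 31.1 CPM, Ccnd2 at 62.3 and 71.0, Ccnd3 at 30.8 and 29.5 and Cdk6 at 9.58 and 13.6. The ratio of Cdk6 to quiescent SCs was 0.234 (0.173 to 0.314) and 0.235 (0.129 to 0.400). E2f1 was higher at 9.58 and 15.2 CPM (ratios 3.46 and 5.57), Ccne2 at 4.30 and 4.78 (5.64 and 4.78) and Rb1 at 32.2 and 29.5 (1.63 and 1.64). Rb1 reached its highest level of the 9 classes here, though its interval overlapped that of the next class in both libraries.

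Melanotrophs, a class named for the Pomc cells of the intermediate lobe, had the reverse of this Cdk6 level. The class was gated on Pomc and on the summed UMIs of Pax7, Pcsk2, Tbx19 and Oacyl. Corticotrophs, which also make Pomc, had no gate of their own and may be among these cells. Cdk6 was at 66.2 CPM in male and 96.6 in female melanotrophs, a ratio to quiescent SCs of 1.62 (1.30 to 2.01) and 1.68 (1.34 to 2.09), and as high as in S phase SCs (66.6 and 82.2), whose intervals it overlapped. It was at 14.7 and 19.4 CPM in the POU1F1 lineage, the source of somatotrophs, lactotrophs and thyrotrophs, where the ratio was 0.359 (0.264 to 0.483) and 0.336 (0.230 to 0.480). Ccnd1 was lowest of the 3 types in female melanotrophs, at 9.91 CPM, and at 19.6 in male ones, with ratios of 0.0694 and 0.0400. In all, melanotrophs had 2 genes higher (Cdk6 and Ccne2) and 2 lower (Ccnd1 and Ccnd3), beside 10.2% and 20.4% of all genes. Pomc took up a large part of their UMIs, which lowers the CPM of every other gene.

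The POU1F1 lineage had E2f2 higher, at 6.01 and 8.81 CPM, a ratio of 2.48 (1.24 to 4.98) and 5.87 (2.47 to 13.8), and Ccnd1 and Cdk6 lower, 1 and 2 of the 9 genes with enough UMIs, beside 13.7% and 13.2% of all genes. Its Ccnd1, at 86.6 and 85.0 CPM, was the highest of the 3 endocrine types in both libraries. E2f2 rested on 34 and 20 UMIs, and in melanotrophs on 7 and 0 UMIs. At 0 UMIs in female melanotrophs, a level of up to 1.86 CPM (3 UMIs) could have been missed.

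Of the other lists, all 6 immediate-early genes were lower in endocrine cells as a whole, beside 16.1% of all genes. Jun was at 491 and 756 CPM against 2411 and 2598, and Fosb at 70.2 and 145 against 334 and 406. Such genes are known to respond within minutes to growth signals and also to tissue dissociation, the part of which was not tested. Fos, of the same list, was at 5124 and 4769 CPM in quiescent SCs and 1801 and 2438 in endocrine cells. By type, 6 were lower in gonadotrophs (beside 13.8% of all genes), 6 in melanotrophs (20.4%) and 3 in the POU1F1 lineage (13.2%). In differentiating cells 3 of the 6 were lower, beside 18.6% of all genes, and in mesenchymal cells 4, beside 14.6%. Cdkn2d (64.3 and 45.5 CPM against 13.6 and 9.61) and Cdkn1c (1376 and 973 against 475 and 486) were higher and Cdkn1a was lower (6.87 and 6.42 against 15.3 and 16.7). The types differed, as Cdkn1c was at 253 and 455 CPM in melanotrophs and Cdkn1a at 18.0 and 11.9 in the POU1F1 lineage, neither of them counted. Of 8 other G1/S kinases and regulators Cdk2 (2.74 and 2.92 against 9.13 and 8.06) and Cdk7 (31.5 and 28.2 against 49.1 and 46.2) were lower.

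Mesenchymal cells, which expressed Dcn and collagen genes and little Pitx1, had 1 of the 9 genes with enough UMIs higher and 2 lower, beside 14.3% and 14.6% of the 12992 genes tested. Ccnd3 was at 196 CPM in male and 219.9 in female mesenchymal cells, the highest of the 9 classes in both libraries with intervals apart from all others, and its ratio to quiescent SCs was 2.51 (2.21 to 2.86) and 2.05 (1.79 to 2.35). Ccnd1 was at 31.4 and 35.9 CPM, with ratios of 0.111 (0.0895 to 0.137) and 0.145 (0.111 to 0.186), and Cdk6 at 17.8 and 17.0, with ratios of 0.435 (0.312 to 0.598) and 0.295 (0.196 to 0.433). E2f2 gave 1 UMI in each library. Ccne2, with too few UMIs to be counted, was at 1.29 and 2.76 CPM.

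The makeup of the D-type cyclin UMIs differed between the classes. Ccnd1 gave 59.1% of them in male and 39.8% in female quiescent SCs, 77.7% and 65.7% in G2/M SCs, 39.1% and 28.7% in differentiating cells, 20.6% and 18.0% in endocrine cells and 7.89% and 8.03% in mesenchymal cells. Ccnd2 gave the largest share in differentiating and endocrine cells, 52.0% and 60.2% and 53.9% and 57.3%. Ccnd3 gave 49.2% in mesenchymal cells of each library and 8.87% and 11.1% in differentiating cells. The order of the SC, differentiating, endocrine and mesenchymal classes by the share of Ccnd1 was the same in the libraries, although the female share of Ccnd2 was larger in every SC class.

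**Figure D4:**
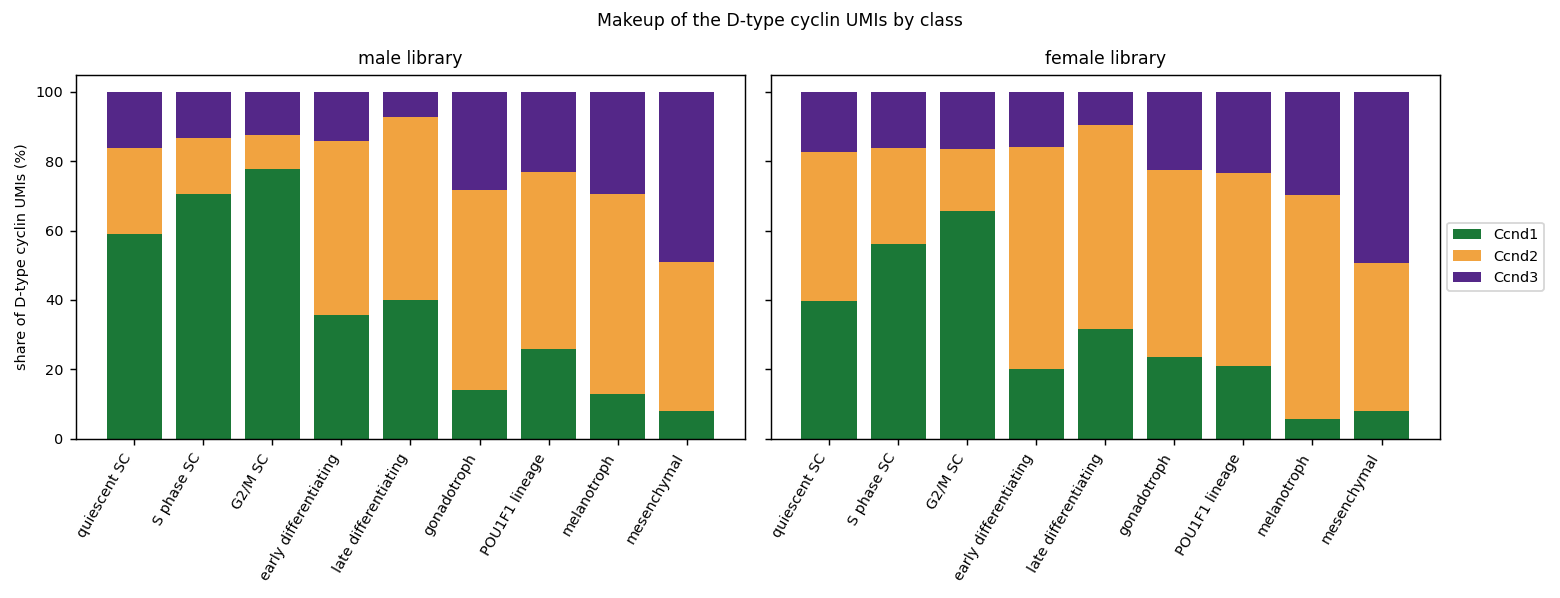
Share (%) of the summed D-type cyclin UMIs given by Ccnd1 (green), Ccnd2 (orange) and Ccnd3 (purple) in 9 classes of the male and the female library. Ccnd1 makes up 77.7% and 65.7% in G2/M SCs and 7.89% and 8.03% in mesenchymal cells, where Ccnd3 makes up 49.2%.

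Within quiescent SCs the D-type cyclins followed the SC subtype. Ednrb, an endothelin receptor, and Aldh1a2, a retinoic acid synthesis enzyme, were used to gate these subtypes. Of the 8 genes with enough UMIs 3 were lower and 0 higher in Aldh1a2-rich (777 male and 703 female cells) than in Ednrb-rich SCs (248 and 745 cells), beside 3.23% and 1.30% of all genes. Ccnd2 was at 76.4 and 129 CPM against 243 and 427, a ratio of 0.314 (0.268 to 0.368) and 0.301 (0.271 to 0.334). Ccnd3 was at 62.3 and 80.9 against 126 and 132, with ratios of 0.495 (0.406 to 0.605) and 0.611 (0.525 to 0.711), and Cdk6 at 35.8 and 44.1 against 56.6 and 71.4, with ratios of 0.633 (0.477 to 0.843) and 0.618 (0.503 to 0.759). Ccnd1 went the other way, at 306 and 297 CPM against 225 and 188, with ratios of 1.36 (1.21 to 1.54) and 1.58 (1.43 to 1.75). It passed 1.5-fold in the female library only.

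The same was seen in steps of Ednrb, over quiescent SCs that include the cells of both subtypes. Quiescent SCs were grouped by 0, 1, 2 to 3 or 4 and more Ednrb UMIs in 5000, a grouping chosen after the subtype values were seen. Ccnd2 was at 95.3, 168, 214 and 308 CPM in the male and 171, 310.3, 422 and 527 in the female library. Ccnd1 was at 302, 258, 183 and 92.5 CPM in the male and 292, 230.2, 189 and 97.0 in the female. The 2 cyclins thus changed places, Ccnd1 being highest where Ednrb was not detected and Ccnd2 where it was most abundant, in both libraries. Cdk4 stayed between 384 and 422 CPM in the male and between 330.4 and 360.4 in the female groups. The male group with 4 or more UMIs held 33 cells.

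**Figure D5:**
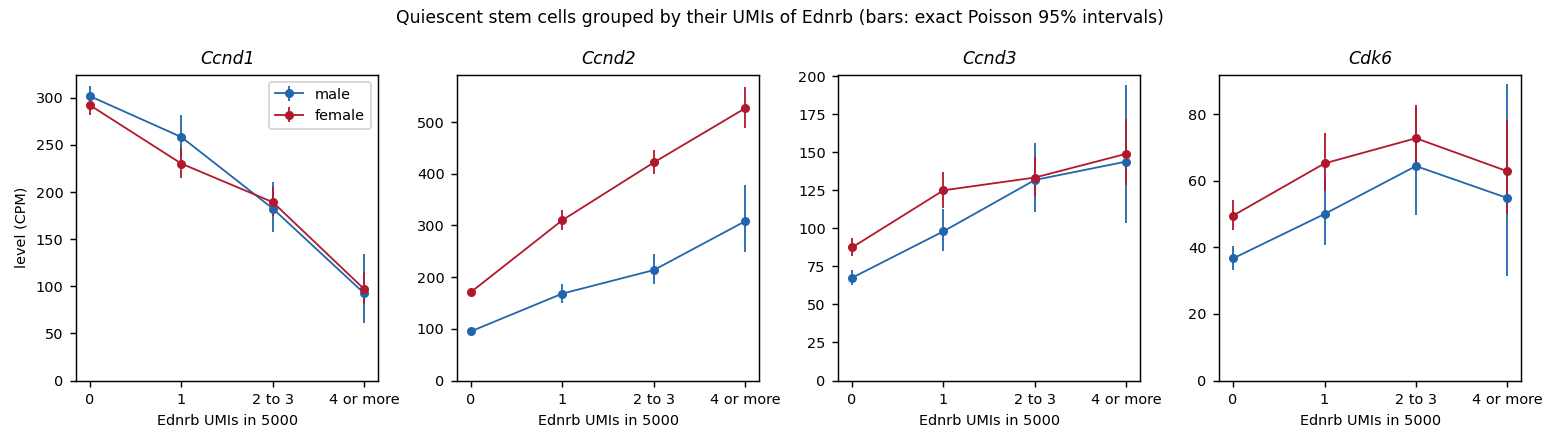
Level (CPM) of Ccnd1, Ccnd2, Ccnd3 and Cdk6 in quiescent SCs grouped by their Ednrb UMIs in 5000, male in blue and female in red, bars exact Poisson 95% intervals. Ccnd2 climbs from 95.3 to 308 CPM in male and from 171 to 527 in female cells while Ccnd1 drops to 92.5 and 97.0.

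Between the libraries of male and female cells, Ccnd2 differed in more classes than any other of the 10 genes. In the 6 main classes, 60 values in all, 0 were at least 1.5-fold higher in male cells with intervals apart and 7 in female cells. With classes set on thinned cells the counts were 1 and 4, since Ccnd2 in endocrine cells (ratio of male to female 0.732) and Ccne2 in S phase SCs (0.667, only just short of the limit, against 0.633) and G2/M SCs (0.809) were no longer counted and Cdk6 in differentiating cells was higher in male (38.6 against 21.2 CPM). Without the cells that scored highest in Scrublet, a doublet caller, 5 were higher in female. Ccnd2 (50.2 against 64.3 CPM) and Ccne2 (19.4 against 27.6) in G2/M SCs were not. The comparison rests on 1 library per sex, so sex and library cannot be told apart. Ccnd2 was higher in female quiescent SCs (118 against 268 CPM), S phase SCs (118 against 242), G2/M SCs (50.4 against 82.0) and endocrine cells (101 against 154). Within each endocrine type it was not counted, with a ratio of male to female of 0.879 (0.656 to 1.19) in gonadotrophs, 0.753 (0.648 to 0.8755) in the POU1F1 lineage and 0.764 (0.585 to 0.9987) in melanotrophs, and gonadotrophs were 624 of 1176 male and 86 of 372 female endocrine cells. Of the 10 genes only Ccnd1 was counted within an endocrine type, higher in female gonadotrophs (15.3 against 31.1 CPM). In early differentiating cells Ccnd1 was higher in male (93.3 against 61.0 CPM). In quiescent SCs 2.94% of all genes were higher in the female and 1.71% in the male library. Ednrb-rich SCs were 248 of 1391 male and 745 of 1942 female quiescent SCs. With 0 Ednrb UMIs Ccnd2 was at 95.3 CPM (89.6 to 101) in male and 171 (163 to 179.5) in female SCs, and with 4 or more at 308 (248 to 379) and 527 (488 to 568). In mesenchymal cells it was at 171 and 191 CPM, with overlapping intervals.

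Ccne2 was higher in the female library in S phase SCs (53.3 against 84.2 CPM, beside 1.44% of all genes higher in female and 1.59% in male) and in G2/M SCs (19.4 against 30.8, beside 1.41% and 1.65%), while E2f1 was at 69.4 in both S phase groups. Female S phase SCs had fewer UMIs per cell, with a median of 12675 against 16787 in male, and the part of depth was not tested. Cdk6 was higher in female endocrine cells (21.2 against 42.2 CPM, beside 3.15% of all genes higher in female and 3.59% in male). Those cells were 98 melanotrophs of 372 in the female and 139 of 1176 in the male library. Within types the Cdk6 intervals overlapped in gonadotrophs (9.58 and 13.6) and in the POU1F1 lineage (14.7 and 19.4), and were apart in melanotrophs (66.2 and 96.6) with less than a 1.5-fold difference. Pomc took a larger part of the UMIs in male than in female melanotrophs, which lowers the male Cdk6 CPM more. Levels in melanotrophs without Pomc were not compared.

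Genes whose pattern was most like that of each member were found by Pearson's r of log2(CPM + 5) over 20 values, 10 classes in 2 libraries, among 12675 genes that were neither members nor gate markers. The points share libraries and cell types, so r is a description. Ccnd1 was most like Hmga2 (0.95), Slc9a3r1 (0.95) and Tspan12 (0.94). Cdk4 was most like Gtf3a (0.97), Set (0.97) and Actl6a (0.96), and Ccnd3 like Tmem140 (0.95), Rarg (0.94) and Sdc2 (0.94). For Ccne1 the list was Dscc1 (0.96) and Mybl2 (0.95), for Ccne2 Donson (0.96), Fam111a (0.96) and Lrr1 (0.95), and for E2f1 the replication factors Rpa2 (0.94), Rfc2 (0.94) and Rfc3 (0.93). Cdk6 was most like Apbb1ip (0.90), Clu (0.88) and Ccdc162 (0.88), Rb1 like Spryd7 (0.87) and Med28 (0.86), and E2f2 like Paxip1 (0.90), Eif4a3 (0.88) and Usp43 (0.87). Ccnd2 had the least alike partners, H2-T23 (0.77) and Trpm5 (0.72). Among the members, Ccne1 and Ccne2 had an r of 0.93 and Ccne2 and E2f1 of 0.91, while Ccnd1 and Ccnd2 had an r of 0.13.

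Cycling cells of other classes were few. Ccne2 was at 28.5 CPM (21.8 to 36.6) in 66 male and 27.9 (18.2 to 40.8) in 29 female cycling differentiating cells, and at 57.2 (42.9 to 74.8) in 35 male and 119 (81.8 to 167) in 11 female cycling endocrine cells. E2f1 was at 23.8 and 22.5 CPM in the former and 44.3 and 50.4 in the latter. Ccnd1 in cycling differentiating cells was at 352 and 281 CPM, against 119 and 92.1 in those with at most 2 UMIs of cycle markers. The cells with the highest Scrublet scores, a number set in advance for each library, included 33.3% of male and 55.2% of female cycling differentiating cells. That was far more than the 0.829% and 2.53% of S phase SCs. They also included 14.3% and 36.4% of the cycling endocrine cells. These shares rank the classes within a library and are not rates of doublets. The part of doublets in these levels was not tested.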

How the data were processed

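The authors sorted GFP-positive cells and made 10x Genomics 3′ libraries. The study's methods name v2 chemistry, and the labels name both v2 and v3. The deposited matrices hold counts, raw UMIs per gene and barcode, and their headers name Cell Ranger 3.0.2. The submitters' processing notes name mm10, R 3.6.0 and Seurat 3 and 4. The authors' own cell filtering and clusters were not used here.

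Barcodes with fewer than 50 genes or a mitochondrial share over the mean plus 3 SD (20.4% in male, 26.1% in female) were removed, 159 male and 85 female. Cells with under 5000 UMIs (3627 and 287) were left out. Doublets were not removed beyond cells that met gates of more than 1 class. The 867 male and 261 female cells with the highest Scrublet scores were left out in an alternative. These totals were set in advance from the number of cells in each library, as a share that grows with it. They are not counts of doublets that Scrublet found, and the larger male share follows from the larger number of cells. Classes were gated on raw UMIs of markers, with thresholds set after marker UMIs and cell numbers were seen, but not the levels of the 10 genes. Differences were not tested, since there is 1 library per sex. All genes with at least 50 UMIs in a comparison gave the background shares. Alternatives were other UMI minimums, looser and stricter gates, gates on thinned cells, other scalings, a 2-fold limit and another background. The calling step was tested on simulated Poisson counts with known fold changes. These hold no spread between cells, animals or libraries, so they check the calculation and not the rule on real data. Work was done in Python 3.11.15 with scanpy 1.11.5, and TMM factors came from edgeR 4.0.16 in R 4.3.3. CPM are counts summed per class. Named were the 10 genes, the 2 genes of each other list with the largest ratio each way, and the 3 genes most like each member. Some of these genes are not reported here. Beyond these, a few genes of the lists and markers were named after their values were seen. The members, lists and markers were chosen with earlier results of these data known. Coordinates are those of GENCODE M21 and RefSeq on GRCm38.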

Additional observations from a re-analysis of the deposited data

Results flagged for a closer look

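Ccnd2 moved in opposite directions in the libraries in 3 comparisons with quiescent SCs, with the limits of both ratios on opposite sides of 1. In differentiating cells the ratio was 1.34 (1.23 to 1.46) for the male cells and 0.721 (0.673 to 0.773) for the female ones, in mesenchymal cells 1.45 (1.28 to 1.64) and 0.712 (0.627 to 0.806), and in the POU1F1 lineage 1.45 (1.30 to 1.62) and 0.849 (0.756 to 0.952). These differences were not tested, and all 3 share the quiescent SCs, where the female level was 268 CPM and the male level 118.

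The 10 genes were also detected in cells that no comparison used. Summed over the 10 genes, cells with under 5000 UMIs held 896 CPM (male, 3627 cells) and 940 (female, 287 cells), where 3 UMIs would give 0.497 and 3.47. Cells that met no gate held 950 and 962 CPM, and cells that met gates of more than 1 class 938 and 982.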

How the results depend on the processing

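The alternatives covered 5 comparisons with quiescent SCs, those of S phase SCs, G2/M SCs, differentiating, endocrine and mesenchymal cells. The single endocrine types, the SC subtypes, G2/M against S phase SCs and late against early differentiating cells were not among them. Over the 5, 24 values of members were counted as higher or lower. Under the 9 alternatives that recompute the ratios, 216 of 216 such values had the same direction. That is a weak check, since the values were chosen for differing at least 1.5-fold and the direction was that of their mean over the libraries. TMM factors, 2000 or 8000 UMIs per cell, and leaving out the cells with the highest Scrublet scores changed 0 of the 24 calls. A ratio of at least 2 left out 6 of them by construction, so that members higher in differentiating cells went from 3 to 1 and members lower in endocrine cells from 2 to 1. The mean over cells of the CPM per cell, which has no counting limits, raised the members higher in mesenchymal cells from 1 to 2, by Ccne2, and added E2f2 as lower there. Classes set on thinned cells lost Ccnd1 in S phase SCs and E2f1 in differentiating and endocrine cells, gained E2f2 in endocrine cells, and moved the values higher in female from 7 to 4 and in male from 0 to 1; the cause was not tested. Looser and stricter gates each lost Ccne1 in differentiating cells, and CPM without mitochondrial, ribosomal protein and hormone genes lost Cdk4 in S phase SCs and gained it as lower in mesenchymal cells. Classes were compared within each library. Between the sexes, no paired analysis was possible because each sex has 1 library and the labels give no shared replicate numbers. Intervals cover counting error only, and Ccne1, Ccne2, E2f1 and E2f2 outside cycling cells rest on few UMIs.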
